A study of Mus musculus with 6 samples.

Results

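The tumor necrosis factor (TNF) superfamily of ligands and receptors was compared between Tyr-L and Tyr-H cells. Genes were taken by symbol: every *Tnfsf* and *Tnfrsf* symbol with a number, and *Tnf*, *Lta*, *Ltb*, *Ltbr*, *Fas*, *Fasl*, *Cd40* and *Cd27*. In all, 31 genes matched, out of 20788 with a row in 1 library or more. Of these, 30 were protein-coding members of the superfamily (10 ligands and 20 receptors), and the other one, *Tnfsf13os*, was an antisense transcript that matched only by its name. The GENCODE M21 annotation of GRCm38 holds 40 genes with such symbols. The remaining 9 (*Cd40*, *Fasl*, *Tnfrsf11a*, *Tnfrsf17*, *Tnfrsf21*, *Tnfsf11*, *Tnfsf14*, *Tnfsf4* and *Tnfsf8*) had no row in any of the 6 tables and were not analysed here.

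Tyr-L and Tyr-H cells are subclones of B16, a mouse melanoma line from the C57BL/6 strain, with low and high tyrosinase activity in that order. Both were grown in the same low-glucose DMEM with serum and antibiotics, and no treatment set them apart. RNA was sequenced in 3 libraries of each, and the sources do not say whether these came from separate cultures, or whether each group was 1 subclone or several. The p-values given here therefore measure the spread between these libraries, which may be technical. Expression is given in FPKM (fragments per kilobase of transcript, scaled to the mapped fragments of the library, as deposited by the authors). Means are followed by the SD over 3 libraries, and a gene without a row in a library was taken as 0 FPKM.

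Ligands of this family are mostly membrane proteins that act as trimers, some of them after being shed. Some of the receptors carry a death domain, through which they recruit adaptors such as FADD and TRADD and can start caspase-dependent cell death. Others lack it and bind TRAF proteins, which lead to NF-κB and MAP kinase signalling, and decoy receptors bind a ligand without passing on a signal. Fas and DR5 are receptors through which cytotoxic lymphocytes can kill tumor cells, and many other members belong to the exchange between lymphocytes and antigen-presenting cells.

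The libraries listed 16813 to 17413 genes. The files hold no counts. The steps between the lowest values gave an approximate depth of 18600000 to 21100000 fragments per library, so that 3 fragments on a transcript of the length of *Tnf* would give 0.0867 to 0.0984 FPKM. Between libraries of the same group the median absolute difference over genes was 0.0953 to 0.114 on the log2 scale, and between libraries of different groups it was 0.315 to 0.371. The melanocyte markers *Tyrp1*, *Dct*, *Pmel* and *Mlana* were abundant in both groups, and the 8 melanocyte markers examined summed to 7554 to 7877 FPKM in Tyr-L and 5634 to 6186 FPKM in Tyr-H libraries. All 8 were tested: 1 rose, 6 fell and 1 did not pass the adjusted p (limma), with a median log2 fold change of -0.41 (over all tested genes, 17.9% rose, 39.9% fell and the median was -0.15). *Tyr* was called higher (from 10.0 ± 0.602 to 21.3 ± 2.14 FPKM) and *Mitf*, the transcription factor of the lineage, lower (from 90.5 ± 6.64 to 25.0 ± 1.56 FPKM), and *Tyrp1*, *Dct*, *Pmel*, *Mlana* and *Sox10* fell by less than the fold threshold. Of 12 leukocyte markers, 8 (*Ptprc*, *Cd3e*, *Cd4*, *Cd8a*, *Itgam*, *Adgre1*, *Ncr1* and *Nkg7*) had no row in any library. The summed level of the other 4 was 3.19 to 4.26 FPKM in Tyr-L against 4.06 to 4.51 FPKM in Tyr-H libraries, nearly all of it from *Cd68*, which encodes a lysosomal protein, and neither of the 2 tested passed the adjusted p. The endothelial markers summed to at most 0.0540 FPKM and the epithelial ones to at most 0.0546 FPKM in any library, and none of these was tested. The fibroblast markers summed to 0.928 to 1.18 FPKM, and of 3 tested 1 rose, 1 fell and 0 were called. The part of other cell types in the results was not tested.

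The superfamily was expressed mainly through 4 receptors. *Tnfrsf12a*, *Tnfrsf1a*, *Ltbr* and *Tnfrsf10b* made up 89.8% to 90.6% of the summed FPKM of the 31 members in Tyr-L libraries and 93.9% to 94.5% in Tyr-H libraries. The sum itself went from 140 ± 3.79 FPKM (Tyr-L, n = 3) to 245 ± 9.17 FPKM (Tyr-H, n = 3), 1.75 times as high. The 10 ligands together reached 4.70 ± 0.0946 and 4.77 ± 0.323 FPKM in the same order, so the higher sum lay with the receptors. In bulk RNA, a change in the number of cells that express a gene and a change in the RNA per cell cannot be told apart.

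**Figure D1:**
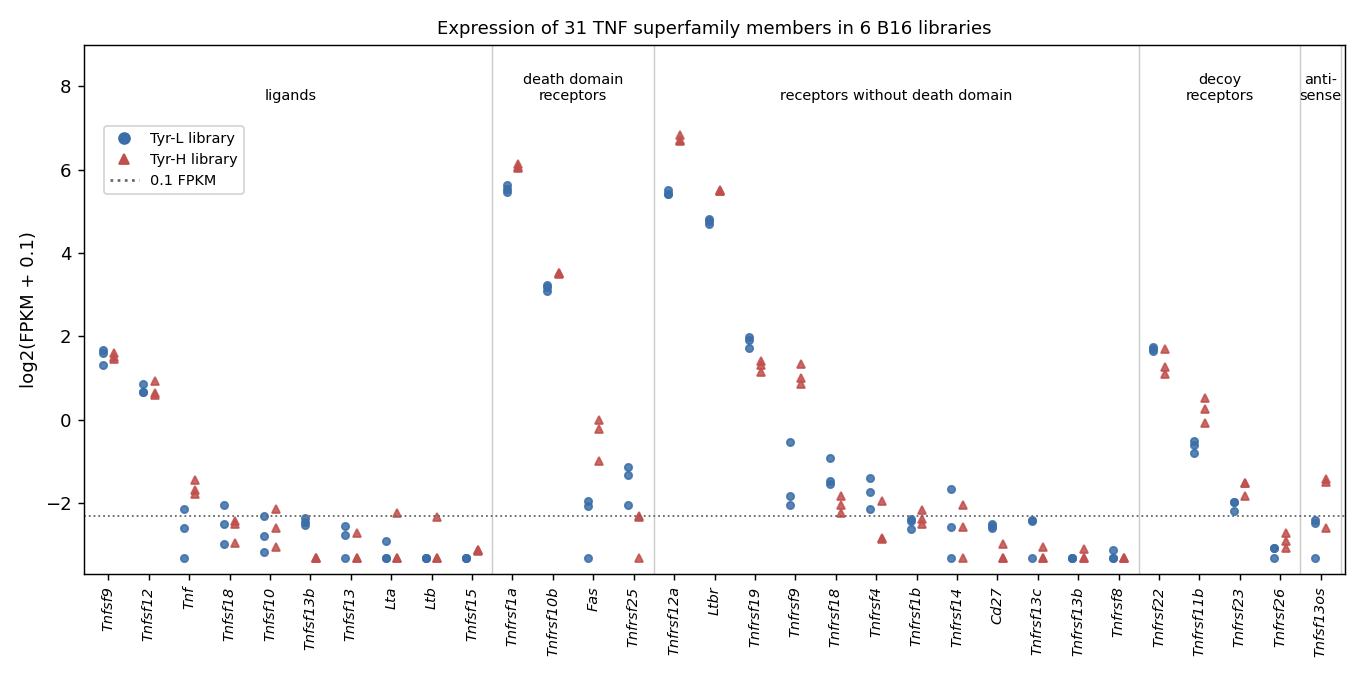
Expression of the 31 members, as log2(FPKM + 0.1), in each Tyr-L library (circles) and Tyr-H library (triangles), grouped by role; the dotted line marks 0.1 FPKM. The 4 highest receptors stand above every other member in each library, whereas 14 members had a mean under 0.1 FPKM.

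The groups were compared as Tyr-H against Tyr-L with limma, on log2(FPKM + 0.1) and over the 14336 genes whose mean reached 0.1 FPKM, with Benjamini-Hochberg adjustment over all of them. A gene is described as having risen or fallen where its adjusted p did not exceed 0.05, and as called where its log2 fold change was also at least 1 in size. All tested genes had a median log2 fold change of -0.15, so a value relative to the other genes is 0.15 higher than the one printed. On this scale the changes of genes near 0.1 FPKM are understated. Of the 31 members, 17 passed the filter and were tested, and 14 were near zero. Among the 17, 4 were called higher in Tyr-H cells (*Tnfrsf12a*, *Tnfrsf9*, *Fas* and *Tnf*), where 2.96% of all tested genes were. Only *Tnfrsf25* was called lower, where 5.78% of all tested genes were, which makes 5 called members against 8.75% of all tested genes in either direction. At the adjusted p alone, 8 of the 17 rose and 2 fell, against 17.9% and 39.9% of all tested genes (57.8% in either direction). The groups did not overlap in 9 members higher in Tyr-H cells and in 3 lower, against 20.2% and 43.8% of all tested genes (64.0% in either direction). The median log2 fold change of the 17 was 0.42. These counts are a description, since *Tnf*, *Fas* and *Tnfsf13os* reached a mean of 0.1 FPKM only in Tyr-H cells, and *Tnfrsf25* and *Tnfrsf4* only in Tyr-L cells. With 3 libraries against 3, an exact permutation test cannot give a p below 0.1.

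**Figure D2:**
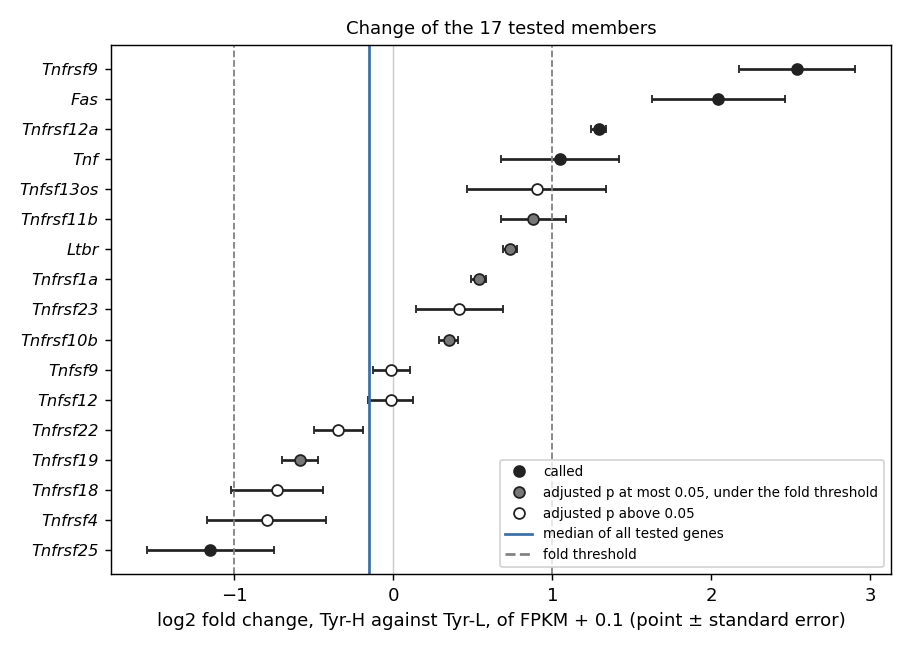
Log2 fold change of FPKM + 0.1, Tyr-H against Tyr-L, of the 17 tested members with its standard error (bars); black points were called, grey points passed the adjusted p alone, and open points did not. The called increases run from *Tnf* at 1.05 to *Tnfrsf9* at 2.54, and the median of all tested genes is marked at -0.15.

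*Tnfrsf12a* encodes Fn14, the receptor of TWEAK and one of the smallest receptors of the family, without a death domain. Its gene (GRCm38, chromosome 17, 23675445 to 23677468, minus strand) had the highest mean of all members over the 6 libraries, although *Tnfrsf1a* was higher in each Tyr-L library. It measured 42.7, 45.6 and 42.5 FPKM in Tyr-L against 104, 103 and 114 FPKM in Tyr-H libraries. The groups were far apart and the libraries within each close together. The means were 43.6 ± 1.74 and 107 ± 5.88 FPKM, a 2.45-fold difference (log2 fold change 1.29 with a standard error, SE, of 0.05, limma adjusted p = 1.8e-07). This receptor alone held 29.8% to 32.3% of the summed FPKM of the members in Tyr-L and 43.0% to 44.5% in Tyr-H libraries. It was called in every alternative tried, with log2 fold changes between 1.20 and 1.44.

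*Tnfrsf9* encodes 4-1BB (CD137), a costimulatory receptor best known on activated T cells, and lies on the plus strand of chromosome 4 (150914562 to 150946102). It measured 0.591, 0.140 and 0.179 FPKM in Tyr-L against 1.70, 1.90 and 2.42 FPKM in Tyr-H libraries, and Tyr-L library 1 stood well above the others of its group. The lowest Tyr-H library was still above the highest Tyr-L library. Its change, at 2.54 on the log2 scale (SE 0.36, limma adjusted p = 0.00028) was the largest of the members and ranked 37th from the top among all tested genes. It stayed between 2.25 and 3.01 when any 1 library was left out and was 1.22, still called, with 1 FPKM added in place of 0.1. The gene overlaps *Camta1* on the opposite strand, and the files give both the same locus, which makes its values uncertain.

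*Fas* encodes the death receptor of the same name and lies on the plus strand of chromosome 19 (34290666 to 34327772). It measured 0.137 and 0.158 FPKM in Tyr-L libraries 1 and 2 and had no row in Tyr-L library 3, against 0.758, 0.402 and 0.895 FPKM in Tyr-H cells. At the estimated depth these correspond to at most about 5.35 fragments in a Tyr-L library and to about 13.8 to 27.4 in a Tyr-H library. All Tyr-H libraries were above all Tyr-L libraries. The log2 fold change was 2.04 (SE 0.42, limma adjusted p = 0.0024). *Fas* was called with any 1 library left out (1.61 to 2.34). With 1 FPKM added in place of 0.1 its log2 fold change was 0.61, under the fold threshold, at an adjusted p of 0.0018, and with 0.01 FPKM it was 3.39. Its ligand gene, *Fasl*, had no row in any library.

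The sequences upstream of *Tnfrsf12a*, *Fas* and *Tnfrsf9* are shown because these were the receptor genes called higher. Each line gives the 250 bases before an annotated start in RefSeq (GRCm38.p6), on the strand of the gene. Both *Tnfrsf9* windows lie inside the gene as GENCODE M21 annotates it, from 150914562, so upstream and downstream give only their order. Capitals mark the AP-1 motif TGACTCA, the GC box GGGCGG and the NF-κB motif, each searched on both strands, so that some appear as their reverse complement. The motifs were chosen after the expression values were known, and a match is a description of the letters.
Tnfrsf12a, chr17:23677450-23677699, minus strand: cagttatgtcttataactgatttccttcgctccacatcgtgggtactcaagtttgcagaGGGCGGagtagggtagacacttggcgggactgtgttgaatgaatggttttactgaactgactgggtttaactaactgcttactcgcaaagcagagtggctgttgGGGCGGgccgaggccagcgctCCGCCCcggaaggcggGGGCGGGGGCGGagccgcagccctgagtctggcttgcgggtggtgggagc
Fas, chr19:34290409-34290658, plus strand: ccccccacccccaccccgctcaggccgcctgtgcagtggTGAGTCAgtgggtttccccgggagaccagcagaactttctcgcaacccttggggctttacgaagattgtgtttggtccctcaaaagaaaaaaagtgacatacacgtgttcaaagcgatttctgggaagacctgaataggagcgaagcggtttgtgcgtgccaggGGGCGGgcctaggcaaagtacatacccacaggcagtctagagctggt
Tnfrsf9, upstream start, chr4:150919905-150920154, plus strand: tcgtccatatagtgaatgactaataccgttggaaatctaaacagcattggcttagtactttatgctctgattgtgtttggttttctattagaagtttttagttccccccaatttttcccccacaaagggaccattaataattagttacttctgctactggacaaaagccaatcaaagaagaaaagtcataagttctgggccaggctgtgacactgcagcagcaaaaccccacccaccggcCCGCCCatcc
Tnfrsf9, downstream start, chr4:150927749-150927998, plus strand: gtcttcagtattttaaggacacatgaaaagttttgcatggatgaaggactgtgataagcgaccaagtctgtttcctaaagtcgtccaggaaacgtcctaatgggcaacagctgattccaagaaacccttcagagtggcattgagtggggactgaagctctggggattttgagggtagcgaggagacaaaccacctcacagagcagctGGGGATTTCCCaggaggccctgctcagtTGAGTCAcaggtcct

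The *Tnfrsf12a* window holds 5 GC boxes, 4 of them within the last 87 bases, and a G+C content of 58.8%, against a median of 52.4% over the 32851 RefSeq windows of the same length. The *Fas* window holds 1 AP-1 motif, which begins 211 bases before the start, and 1 GC box. The downstream window of *Tnfrsf9* holds the NF-κB motif in overlapping matches on both strands, 43 to 33 bases before the start, and 1 AP-1 motif, whereas its upstream window holds 1 GC box. Over all windows, 4.46% hold the AP-1 motif, 3.90% the NF-κB motif and 32.7% the GC box. Counted by gene, in any of its windows, these shares are 5.16%, 4.46% and 35.4% of 27025 genes. Of the 31 members, 24 had a window in the table (28 windows), and of these genes 5 held the AP-1 motif, 3 the NF-κB motif and 11 the GC box. The AP-1 motif was also present upstream of *Tnfrsf8*, *Tnfsf13* and *Tnfsf13b*, and the NF-κB motif upstream of *Ltb* and *Tnfrsf8*, all of which were near zero in these cells.

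Of the other death domain receptors, *Tnfrsf1a* and *Tnfrsf10b* were more abundant than *Fas* in every library, and *Tnfrsf25* stayed under 1 FPKM. *Tnfrsf1a* (TNFR1, the main receptor of TNF; chromosome 6, 125349362 to 125362484) measured 44.0, 46.1 and 49.6 FPKM in Tyr-L against 66.4, 66.1 and 70.2 FPKM in Tyr-H libraries. It was the second most abundant member over all libraries and rose 1.45-fold without overlap (log2 fold change 0.54 with an SE of 0.05, limma adjusted p = 1.7e-05), under the fold threshold. *Tnfrsf10b* (DR5, the receptor of TRAIL; chromosome 14, 69767472 to 69784411) measured 9.30, 8.37 and 8.94 FPKM in Tyr-L against 11.2, 11.4 and 11.3 FPKM in Tyr-H libraries. This 1.27-fold rise was the smallest to pass the test among the members (log2 fold change 0.35 with an SE of 0.06, limma adjusted p = 0.00066), and the 3 Tyr-H libraries were close together (SD 0.0713 FPKM). Of the 50-base words in its longest transcript, 9.07% also occur in transcripts of other genes.

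*Tnfrsf25* encodes DR3, the receptor of TL1A, a death domain receptor mostly studied in lymphocytes (chromosome 4, 152115934 to 152120119). It measured 0.143, 0.299 and 0.352 FPKM in Tyr-L against 0, 0.101 and 0.0991 FPKM in Tyr-H libraries. No Tyr-H library reached the lowest Tyr-L library, but these levels correspond to about 4.58 to 10.9 fragments in Tyr-L and at most about 3.56 in Tyr-H libraries. The log2 fold change was -1.15 (SE 0.40, limma adjusted p = 0.033). The call was lost without Tyr-L replicate 2 (adjusted p = 0.096), Tyr-L replicate 3 (0.11) or Tyr-H replicate 1 (0.10), and after quantile normalization (log2 fold change -0.94, adjusted p = 0.091). It was also lost with a pseudocount of 0.01 FPKM (log2 fold change -2.38, adjusted p = 0.066) or 1 FPKM (-0.24).

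Among receptors without a death domain, *Ltbr* came next after *Tnfrsf12a*. It encodes the lymphotoxin β receptor, which activates the alternative NF-κB pathway, and lies near *Tnfrsf1a* and *Cd27* on chromosome 6 (125306571 to 125313885). It measured 25.6, 27.3 and 28.2 FPKM in Tyr-L against 45.5, 44.5 and 45.0 FPKM in Tyr-H libraries. *Ltbr* rose 1.66-fold (log2 fold change 0.73 with an SE of 0.04, limma adjusted p = 1.5e-06), under the fold threshold and without overlap between groups. *Tnfrsf19* (TROY, known from the nervous system and the hair follicle; chromosome 14, 60963875 to 61046490) went the other way. It measured 3.20, 3.87 and 3.64 FPKM in Tyr-L against 2.53, 2.38 and 2.12 FPKM in Tyr-H libraries, which do not overlap. Its fall of 0.59 on the log2 scale (SE 0.11, limma adjusted p = 0.0017) was under the fold threshold and was 0.43 relative to the median of all genes.

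*Tnfrsf18* and *Tnfrsf4*, which encode the T-cell costimulatory receptors GITR and OX40 and lie close together on chromosome 4, were low in both groups. *Tnfrsf18* measured 0.262, 0.239 and 0.429 FPKM in Tyr-L against 0.143, 0.180 and 0.110 FPKM in Tyr-H libraries. These values do not overlap, but the difference did not pass the adjustment (log2 fold change -0.73 with an SE of 0.29, limma adjusted p = 0.056). *Tnfrsf4* measured 0.280, 0.200 and 0.127 FPKM in Tyr-L against 0.158, 0.0373 and 0.0396 FPKM in Tyr-H libraries, with overlap (log2 fold change -0.80, adjusted p = 0.097). With Tyr-H replicate 1 left out, *Tnfrsf4* was called lower (-1.10, adjusted p = 0.042).

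Chromosome 4 carries 8 of the 31 members, 7 of them receptors. Among these 7, *Tnfrsf9* was called higher and *Tnfrsf25* lower, *Tnfrsf18* and *Tnfrsf4* did not pass the test, and *Tnfrsf1b*, *Tnfrsf14* and *Tnfrsf8* were near zero. On chromosome 6, *Tnfrsf1a* and *Ltbr* rose, while *Cd27* was near zero.

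Of the decoy receptors, *Tnfrsf11b* passed the test. It encodes osteoprotegerin, a secreted receptor that binds RANKL (chromosome 15, 54250619 to 54278484). It measured 0.551, 0.471 and 0.600 FPKM in Tyr-L libraries and in Tyr-H libraries 0.845, 1.34 and 1.10 FPKM, 2.02-fold higher and without overlap. The log2 fold change was 0.88 (SE 0.20, limma adjusted p = 0.0046), under the threshold, which it passed without Tyr-H replicate 1 (1.04) and under both the median ratio (1.02) and the quantile (1.08) scaling. The gene of RANKL, *Tnfsf11*, had no row in any library, nor had that of its signalling receptor RANK, *Tnfrsf11a*.

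*Tnfrsf22*, *Tnfrsf23* and *Tnfrsf26* form a cluster on chromosome 7 (143607659 to 143685872), and the first pair encodes decoy receptors of TRAIL in the mouse. *Tnfrsf22* measured 3.24, 3.14 and 3.01 FPKM in Tyr-L against 2.02, 2.29 and 3.15 FPKM in Tyr-H libraries, so that Tyr-H library 3 fell among the Tyr-L values. Its log2 fold change was -0.34 (SE 0.15, limma adjusted p = 0.079), and without Tyr-H replicate 3 it was -0.52 (adjusted p = 0.0051). *Tnfrsf23* measured 0.155, 0.156 and 0.118 FPKM in Tyr-L against 0.247, 0.249 and 0.179 FPKM in Tyr-H libraries, without overlap (log2 fold change 0.42, adjusted p = 0.22). The files give the 3 genes 1 common locus. Of the 50-base words in the longest *Tnfrsf23* transcript, 21.8% also occur in *Tnfrsf22*, and 17.7% of those of *Tnfrsf22* occur in *Tnfrsf23*, so reads could be split between them and both values are uncertain.

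Only 3 of the 10 ligand genes passed the filter. *Tnf*, the inflammatory cytokine that gives the family its name (chromosome 17, 35199381 to 35202007), had no row in Tyr-L library 1. It measured 0.127 and 0.0632 FPKM in Tyr-L libraries 2 and 3, against 0.209, 0.267 and 0.190 FPKM in Tyr-H cells. The Tyr-H libraries were all higher, at a level of about 5.86 to 9.22 fragments, against at most about 4.31 in a Tyr-L library. The log2 fold change was 1.05 (SE 0.37, limma adjusted p = 0.036). The call held without Tyr-L replicate 2 but was lost with any other library left out: the adjusted p was 0.10 without Tyr-L replicate 1, 0.063 without Tyr-L replicate 3, and 0.075, 0.11 and 0.065 without Tyr-H replicates 1, 2 and 3. It was also lost with a pseudocount of 0.01 FPKM (log2 fold change 2.31, adjusted p = 0.068) or 1 FPKM (log2 fold change 0.20).

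**Figure D3:**
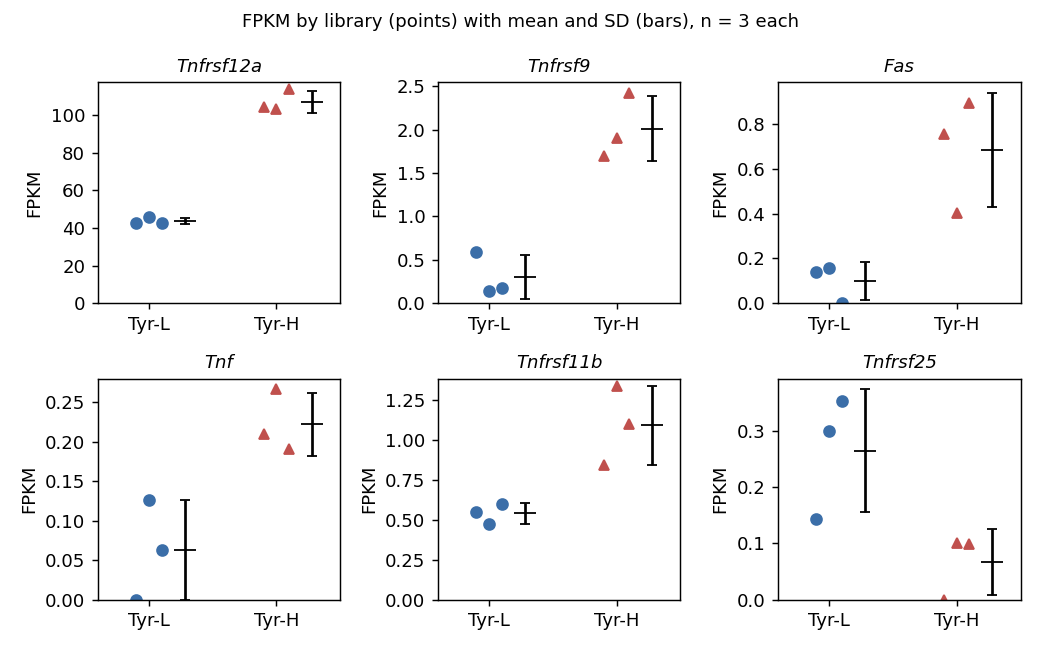
FPKM in each library (points) of the 5 called members and of *Tnfrsf11b*, with the mean and SD of 3 libraries beside them. In each panel the 2 groups do not overlap, and the axes show that *Tnf*, *Fas* and *Tnfrsf25* stay under 1 FPKM where the Tyr-H libraries of *Tnfrsf12a* lie between 103 and 114 FPKM.

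The most abundant ligand genes did not pass the test. *Tnfsf9*, the ligand of 4-1BB (chromosome 17, 57105325 to 57107757), measured 3.08, 2.94 and 2.39 FPKM in Tyr-L against 2.64, 2.73 and 2.93 FPKM in Tyr-H libraries. The groups overlapped, and the 95% interval of the log2 fold change ran from -0.28 to 0.25 (exact permutation p = 0.9, two-sided). *Tnfsf12*, which encodes TWEAK, measured 1.48, 1.49 and 1.72 FPKM in Tyr-L against 1.40, 1.79 and 1.46 FPKM in Tyr-H libraries (95% interval of the log2 fold change -0.33 to 0.30, exact permutation p = 0.8). *Tnfsf12* shares 49.0% of its 50-base words with the read-through gene *Tnfsfm13* and overlaps it on the same strand, so reads could be split between them. *Tnfsf13os*, the antisense transcript at this locus, measured 0.0887, 0.0791 and 0 FPKM in Tyr-L against 0.0655, 0.256 and 0.275 FPKM in Tyr-H libraries, with overlap (log2 fold change 0.90, limma adjusted p = 0.10). It was called without Tyr-H replicate 1 (1.28) and after quantile normalization (1.13). The sources give no strand setting for the counting of reads, so its reads and those of *Tnfsf12* and *Tnfsf13* may not be told apart.

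The 14 members near zero were the ligands *Lta*, *Ltb*, *Tnfsf10*, *Tnfsf13*, *Tnfsf13b*, *Tnfsf15* and *Tnfsf18*, the receptors *Cd27*, *Tnfrsf13b*, *Tnfrsf13c*, *Tnfrsf14*, *Tnfrsf1b* and *Tnfrsf8*, and *Tnfrsf26* of the decoy cluster. They include the genes of TRAIL (*Tnfsf10*), of lymphotoxin α and β, of TNFR2 (*Tnfrsf1b*) and of all the BAFF and APRIL receptors that were listed. *Tnfsf13* shares 51.9% of its 50-base words with *Tnfsfm13* and overlaps it on the same strand, so its low value may reflect split reads, which was not tested. In 9 of the 14, no library reached 0.1 FPKM. The highest value, 0.216 FPKM, was that of *Tnfrsf14* (HVEM) in Tyr-L library 1, which was not repeated in the other Tyr-L libraries (0.066 FPKM in one and no row in the other). *Tnfrsf1b* was listed in all 6 libraries, at 0.0627 to 0.092 FPKM in Tyr-L and 0.0759 to 0.122 FPKM in Tyr-H cells.

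*Tnfsf13b*, the gene of BAFF (chromosome 8, 10006467 to 10039072), followed the labels although it was near zero. It measured 0.0829, 0.0728 and 0.0935 FPKM in Tyr-L cells, about 7.23 to 8.30 fragments each on its long transcript, and had no row in the 3 Tyr-H libraries. When all listed genes were tested without the filter, *Tnfsf13b* fell (log2 fold change -0.87 with an SE of 0.14, limma adjusted p = 0.0019), as did *Cd27*, with 0.0646, 0.0771 and 0.0691 FPKM in Tyr-L against 0.0265, 0 and 0 FPKM in Tyr-H libraries (-0.65, adjusted p = 0.014). Neither reached the fold threshold on this scale, and none of the other 12 passed the test there. The share of all genes that fell without the filter is not given here, and in the filtered test it was 39.9%. *Tnfsf15* followed the labels the other way, with no row in Tyr-L and 0.0122 to 0.0137 FPKM in Tyr-H libraries. *Tnfrsf26* was also higher in Tyr-H cells without overlap (at most 0.0180 against at least 0.0182 FPKM). *Tnfsf13b* overlaps *Gm44789* and *Cd27* overlaps *Vamp1*, each on the opposite strand and with a common locus in the files, which makes both values uncertain. Among the tested members, *Tnfrsf18*, *Tnfrsf19*, *Tnfrsf22*, *Tnfrsf23* and *Tnfsf9* also overlap another annotated gene on the opposite strand, and *Fas* overlaps one on its own strand.

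A selection of known ligand and receptor pairs was set side by side, with levels in FPKM. It does not hold every known pair, and the counts of pairs depend on it. Of 19 pairs, 3 had both genes tested. In the TWEAK pair, *Tnfsf12* averaged 1.56 and 1.55 FPKM while *Tnfrsf12a* went from 43.6 to 107 FPKM. In the 4-1BB pair, *Tnfsf9* had 2.80 and 2.77 FPKM, so that the mean of the ligand was above that of the receptor in both Tyr-L cells (0.303 FPKM) and Tyr-H cells (2.01 FPKM). In the TNF pair, *Tnf* had 0.0633 and 0.222 FPKM against 46.6 and 67.6 FPKM of *Tnfrsf1a*. In 10 pairs the receptor was tested and the ligand was near zero or had no row, among them the pairs of *Fas*, *Tnfrsf10b* and *Ltbr*. Where the receptor was near zero, the mean of the ligand could be the higher one, as for *Tnf* (0.222 FPKM) against *Tnfrsf1b* (0.0964 FPKM) in Tyr-H cells and *Tnfsf13b* (0.0831 FPKM) against *Tnfrsf13c* (0.0582 FPKM) in Tyr-L cells. However, *Tnfrsf13c* had no row in Tyr-L library 2, and in Tyr-L library 1 it was above *Tnfsf13b* (0.0857 against 0.0829 FPKM).

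**Figure D4:**
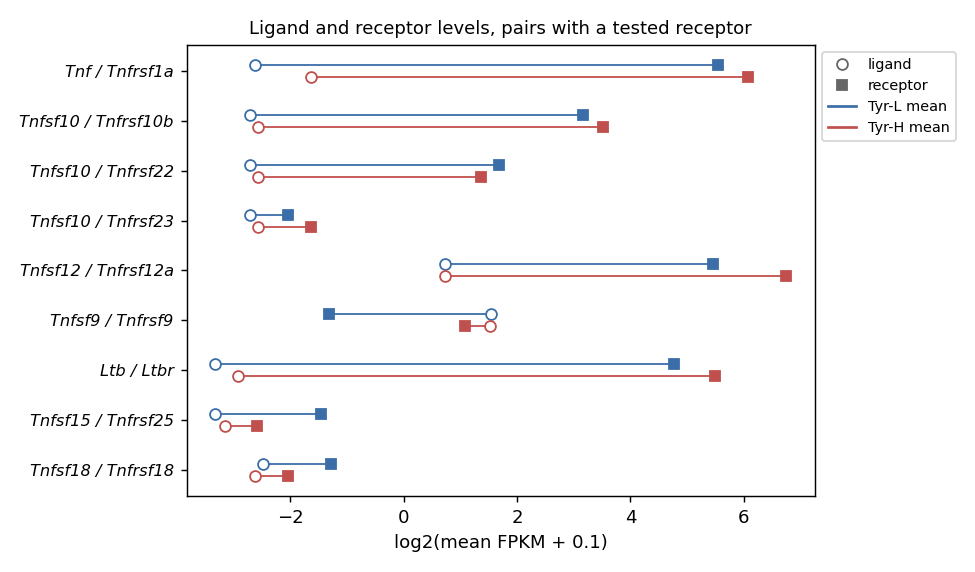
Mean level of ligand (open circles) and receptor (squares), as log2(mean FPKM + 0.1), in Tyr-L and Tyr-H cells for the pairs whose receptor was tested and whose ligand had a row. Only pairs whose receptor passed the filter are drawn, which favours a higher receptor, and *Tnfsf9* and *Tnfrsf9* are the pair drawn with the ligand higher.

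Of related genes that the symbols did not take in, *Ngfr*, the low-affinity nerve growth factor receptor with a death domain, was called higher, from 0.247 ± 0.0351 to 1.47 ± 0.377 FPKM (log2 fold change 2.16, limma adjusted p = 3.6e-05). *Eda2r*, a receptor of ectodysplasin A2, rose from 3.82 ± 0.143 to 6.97 ± 0.701 FPKM (log2 fold change 0.85, adjusted p = 4.1e-05). Both belong to the receptor superfamily under other names. Of the 9 such genes, 5 were tested, 1 was called higher (2.96% of all tested genes) and 0 were called lower (5.78%). *Ngfr* was under the fold threshold with a pseudocount of 1 FPKM (0.98).

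Downstream of the receptors, 37 of 38 listed signalling genes were tested, of which limma called 4 higher and 0 lower, where 2.96% and 5.78% of all tested genes were called. At the adjusted p alone 13 rose and 9 fell, against 17.9% and 39.9% of all tested genes, and at an unadjusted p under 0.05, 13 were higher and 10 lower (19.5% and 42.9% of all tested genes). The median log2 fold change of the 37 was -0.0027, against -0.15 for all tested genes. The called genes were *Traf1*, an adaptor of receptors such as 4-1BB (from 0.059 ± 0.034 to 0.471 ± 0.0613 FPKM; log2 fold change 1.86), the NF-κB subunit *Relb* (from 4.19 ± 0.249 to 15.0 ± 0.937 FPKM; 1.82), and the inhibitors *Nfkbia* (1.06) and *Tnfaip3* (1.03). *Nfkbia* fell short of the fold threshold without Tyr-H replicate 2 (0.99) and after rescaling to a common total (0.98), and *Tnfaip3* without Tyr-L replicate 3 (0.78) or Tyr-H replicate 3 (0.79). *Traf1* reached a mean of 0.1 FPKM only in Tyr-H cells. With 1 FPKM added, *Relb* was the only one of the 4 still called. *Nfkb2*, which encodes the partner of RelB, rose to 19.2 ± 0.439 from 9.69 ± 0.586 FPKM with a log2 fold change of 0.98. *Nfkb2* was called with median ratio and quantile scaling and without Tyr-L replicate 3. Of the listed genes that act in cell death, named here after their values were seen, *Casp8* fell from 30.0 ± 1.07 to 20.9 ± 0.453 FPKM (log2 fold change -0.52, adjusted p = 9.1e-06) and its regulator *Cflar* from 27.4 ± 0.661 to 23.8 ± 1.24 FPKM (-0.20, adjusted p = 0.0051), a change close to the median of all tested genes. The adaptor *Tradd* fell by 0.27 on the log2 scale (SE 0.064, adjusted p = 0.0057), within 2 SE of that median. The kinase gene *Ripk1* rose from 9.65 ± 0.262 to 11.2 ± 0.206 FPKM (0.21, adjusted p = 0.0062), and *Bid*, which encodes a substrate of caspase-8, rose from 13.4 ± 0.519 to 17.9 ± 1.16 FPKM (0.41, adjusted p = 0.00026). *Fadd* had 9.02 ± 0.470 and 9.14 ± 0.230 FPKM (adjusted p = 0.79), and *Mlkl*, an effector of necroptosis, had 23.2 ± 0.812 and 23.4 ± 0.777 FPKM (adjusted p = 0.77). Of the inhibitor of apoptosis genes, *Birc3* rose with a log2 fold change of 0.95 (adjusted p = 0.014). *Xiap* fell by 0.27 on the log2 scale (SE 0.059, adjusted p = 0.0037), within 2 SE of the median of all tested genes. *Birc2* did not pass the test (-0.08, adjusted p = 0.52). *Birc3* was called with median ratio and quantile scaling, with a pseudocount of 0.01 FPKM, and without Tyr-L replicate 1, Tyr-L replicate 2 or Tyr-H replicate 1.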

How the data were processed

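RNA from Tyr-L and Tyr-H B16 cells (3 libraries each) had been sequenced from both ends with 150-base reads from a VAHTS mRNA library. The submitters' processing notes name Trimmomatic, HISAT2 and GRCm38.p6. The quantifier and annotation are not given in the sources used here. The authors deposited FPKM values per library, and genes without a value are not listed. Groups and replicate numbers came from the labels.

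Unlisted values were taken as 0. Genes whose mean reached 0.1 FPKM were tested on log2(FPKM + 0.1) with limma 3.58.1 in R 4.3.3 (eBayes with a variance trend, Benjamini-Hochberg over 14336 genes, two-sided). The procedure was tested on simulated data. Single members also had an exact permutation test. Python 3.11.15, pandas 2.3.3, scipy 1.17.1 and matplotlib 3.10.9 did the rest. Depth was estimated from genes with 1 annotated transcript of at least 1500 bases, and fragment equivalents use the longest transcript in GENCODE M21. They are approximate and cover counting error only. No count test was run, since the files hold no counts.

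The members, lists and motifs were chosen with earlier results of these data known. Values in all 6 libraries are given for members that were called, rose, fell or were among the 10 highest, and for some further tested and near-zero members. Other lists are given by counts and by their called genes. *Eda2r*, *Nfkb2* and the cell-death genes were named after their values were seen. Same-numbered libraries did not deviate together (correlations of their deviations over genes 0.02, 0.01 and -0.08), so the numbers were not treated as pairs. Protein sequences were not used here.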

Additional observations from a re-analysis of the deposited data

How the results depend on the processing

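Over 276 member and setting combinations, 246 kept direction and side of the threshold, 14 lost a call, 6 gained one and 10 changed sign. Settings that changed only the filter, the variance trend or the replicate block left each log2 fold change as it was. Direction could not change under these. The 246 also include members not called in the main test that stayed uncalled. The changes of sign were all in the 2 ligand genes near no change: *Tnfsf9* gave 0.14 with median ratio and 0.17 with quantile scaling, and -0.12 to 0.059 with a library left out, while *Tnfsf12* gave 0.13 and 0.16 with the same scalings and -0.12 to 0.048 with a library left out. Members called higher (4) were 2 with a pseudocount of 1, among genes with a mean of 1 FPKM or more, among genes listed in all 6 libraries, 5 with median ratio scaling, 6 with quantile scaling, 8 with no fold-change threshold, and 3 to 5 with a library left out. Members called lower (1) were 0 with a pseudocount of 0.01 or 1, a mean of 1 FPKM or more, genes listed in all 6 libraries and with quantile scaling, 2 with no fold-change threshold, and 0 to 1 with a library left out; without Tyr-H replicate 1 the one called was *Tnfrsf4* in place of *Tnfrsf25*. *Fas*, *Tnf* and *Tnfrsf25* were not tested under the stricter filters, which removed them. Of all tested genes, 425 were called higher and 829 lower. They were 185 and 203 with a pseudocount of 1, and 247 and 393 with a mean of 1 FPKM or more. With no fold-change threshold they were 2570 and 5722, with median ratio scaling 544 and 580, and with quantile scaling 611 and 494. After rescaling to a common total they were 457 and 1287. With a library left out, 385 to 451 were higher and 741 to 849 lower. The called share that was higher went from 33.9% to 48.4% with median ratio scaling, to 55.3% with quantile scaling and to 47.7% with a pseudocount of 1, and was 26.2% after rescaling to a common total, and the median change of the tested genes (log2) to -0.01 after either scaling and to -0.25 after rescaling to a common total. Signalling genes called higher (4) were 1 with a pseudocount of 1, 2 at a mean of 1 FPKM or more and 13 with no fold-change threshold, and those called lower (0) were 9 with no fold-change threshold. Near-zero members (14) were 10 with a mean under 0.05 FPKM, 21 with a mean under 0.5 FPKM, 9 where every library had to be under 0.1 FPKM and 7 where a gene had to be unlisted in at least 1 library of each group. After rescaling to a common total, 21 members reached the filter in place of 17, so the near-zero count depends on the scale. With the replicate block, members called were 4 higher and 1 lower, and the block changed no member's call; over all genes 430 were higher and 828 lower. The cause of these changes was not tested, apart from the genes that a filter removed. For *Tnf*, *Fas*, *Tnfrsf25*, *Tnfrsf4*, *Tnfrsf18* and the near-zero members, depth limits the precision.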
